A study of Mus musculus with 4 samples.

Results

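The respiratory chain and ATP synthase subunits encoded in the nucleus were followed in cardiac mesenchymal progenitors (CMPs). The members were all probes of the array whose gene name is that of an Nduf, Uqcr, Sdh, Cox4 to Cox8 or Atp5 gene, apart from Cox8b, Cox7a1 and the assembly factors. The rule took 126 of 55681 probes and 83 of the 22292 genes that could be named through RefSeq. Of these, 124 probes and 81 genes were well above background on at least 1 array, compared with 35546 probes and 16694 genes on the whole array, and 122 member probes were so on all 4 arrays. The group was split by role into 73 subunits in general use, 5 tissue-restricted isoforms of cytochrome c oxidase, and 5 genes that matched by name and are no subunits of these complexes (Ndufa4l2, Cox7a2l, Atp5s, Atp5sl and Cox4nb).

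CMPs are Sca-1+ cells grown from the atria of adult C57BL/6 mouse hearts. Untreated CMPs (day 0) were compared with CMPs that carried Oct4, Sox2, Klf4 and c-Myc from Sendai virus (OSKM-CMPs) at day 4, day 6 and day 8, grown in reprogramming medium without leukemia inhibitory factor. All cells were of the C57BL/6 strain and all 4 arrays were made from 250 ng of RNA. There was 1 array per condition, so no test between conditions was possible, and the virus, the medium and the time in culture cannot be told apart. Levels are log2 signals relative to the 75th percentile of the array, a change is a difference of levels on the log2 scale, and errors are 1 SD from the scanner's error model, which covers technical error only. The words "rose" and "fell" are kept for changes of at least 1.5-fold (0.58 on the log2 scale).

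The respiratory chain is a set of enzyme complexes of the inner mitochondrial membrane. Complex I (NADH dehydrogenase) and complex II (succinate dehydrogenase) pass electrons to coenzyme Q, complex III (cytochrome bc1) passes them on to cytochrome c, and complex IV (cytochrome c oxidase) passes them to oxygen. Complexes I, III and IV pump protons, and complex V (ATP synthase) uses the proton gradient to make ATP. Most subunits are encoded in the nucleus and a few core subunits in mitochondrial DNA (mtDNA), so that each complex except complex II needs both genomes. Some subunits of complex IV have an alternative isoform that is known from particular tissues or oxygen conditions.

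The probes of Ndufa4l2 and of the alternative isoforms that stood apart are shown with those of their main paralogs, since the results turn on telling them apart. The first 30 bases of each 60-base probe are given, 5′ to 3′, with the probe's position in mm9 as the array files give it.
Ndufa4l2, chr10:126954149-126954208, plus strand: tgtccctggggatcaaacagaagcagccgt
Ndufa4, chr6:11850423-11850482, minus strand: ccgcacaattttccacttaagcaggaaata
Cox4i2, chr2:152590711-152590770, plus strand: ctgagtcctgtctccactcccttctccaat
Cox4i1, chr8:123197924-123197983, plus strand: aagcgaatgctggacatgaaggccaacccc
Cox6a2, chr7:135349160-135349219, minus strand: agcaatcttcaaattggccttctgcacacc
Cox6a1, chr5:115795726-115795785, minus strand: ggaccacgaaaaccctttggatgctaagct
Cox6b2, chr7:4703488-4703547, minus strand: ggaactttcccgggcaaaatatgaccttgc
Cox6b1, chr7:31409575-31411071, minus strand: aggagtcaggatggctgaagacatcaagac
The Cox6b1 probe spans an intron, as its 1497-base range in the genome shows. The longest run of bases shared by the whole probes of a pair was 7 for Ndufa4l2 and Ndufa4, 7 for Cox4i2 and Cox4i1, 4 for Cox6a2 and Cox6a1 and 6 for Cox6b2 and Cox6b1. These runs compare probe with probe. Binding of a probe to the transcript of the paralog was not tested.

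The 73 subunits in general use stayed within 1.5-fold of the control on every day on the 75th percentile scale. At day 8 their changes ran from -0.58 (Atp5f1) to 0.41 (Ndufb9), with a median of -0.13, and 35 of them were within 1 error of no change. At day 4 the range was -0.50 to 0.28 and at day 6 it was -0.55 to 0.32. Over the whole array, 22.5% of the genes rose and 21.3% fell past 1.5-fold at day 8, and 56.2% stayed within it. At day 4 the shares were 19.6% and 18.2%, and at day 6 they were 20.6% and 20.7%. The interquartile range of the changes at day 8 was 0.30 for the subunits and 0.99 for all genes. Between successive days the subunits moved still less, with an interquartile range of 0.11 from day 4 to day 6 and 0.10 from day 6 to day 8, compared with 0.37 and 0.32 for all genes. No subunit in general use passed 1.5-fold in either step, where 6.7% of all genes rose and 7.6% fell in the first and 6.45% rose and 3.77% fell in the second. These shares include genes that were dim on some arrays. Of the 13790 genes with all probes well above background on all 4 arrays, 61.9% stayed within 1.5-fold at day 8. In the 2 steps 91.5% and 95.3% of them did. Their quartiles at day 8 were -0.48 and 0.38, compared with -0.26 and 0.05 for the subunits.

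**Figure D1:**
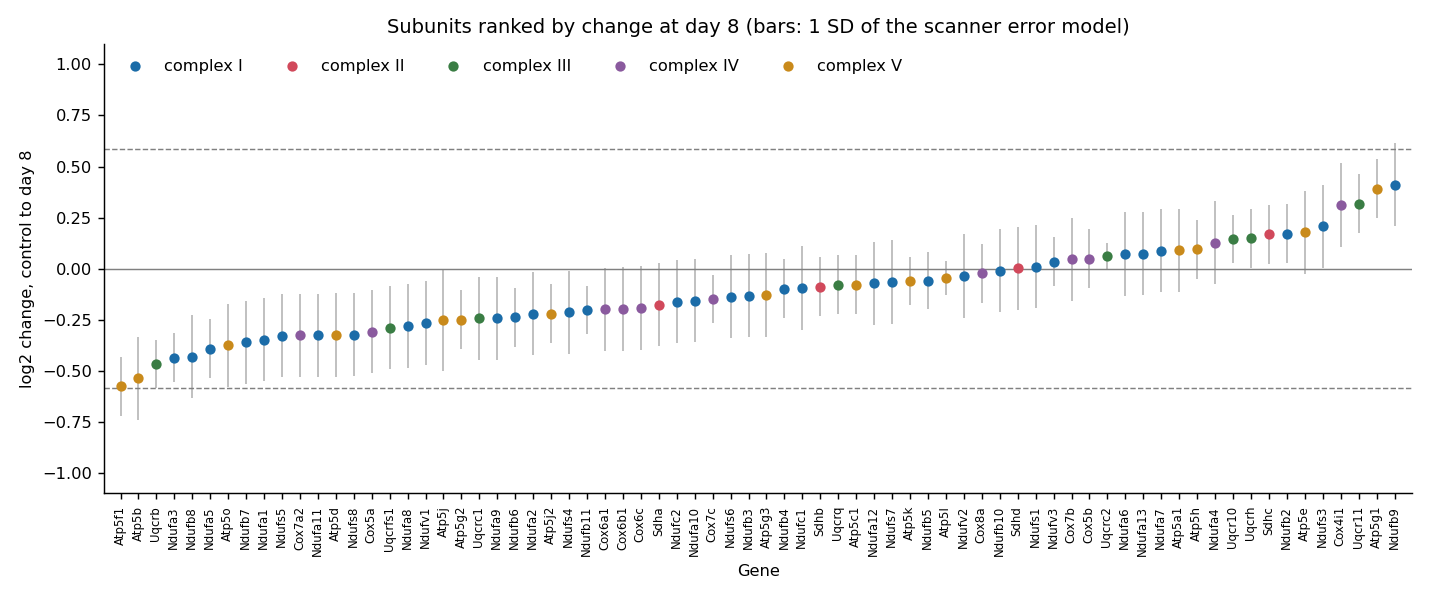
Change from control to day 8 (log2, vertical axis) of 72 of the 73 subunits in general use, ranked from left to right and coloured by complex; bars are 1 SD of the scanner error model and dashed lines mark 1.5-fold. All 72 points lie between the dashed lines, from -0.58 for Atp5f1 to 0.41 for Ndufb9, on the 75th percentile scale; under quantile normalization 4 of them lie above the upper line.

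The sign of this small shift depended on the scaling. Over days 4, 6 and 8 the median of the subunits was -0.02, -0.11 and -0.13 on the 75th percentile scale, but 0.11, 0.15 and 0.14 under quantile normalization. At day 8, 22 subunits were above and 51 below the control on the first scale, compared with 50 above and 23 below on the second. Subunit signals were bright, with a median level of 5.58 in untreated CMPs compared with -0.11 for all genes; the part of brightness in the shift was not tested. Under quantile normalization the range at day 8 was -0.35 to 0.76, and 4 subunits passed 1.5-fold upwards (Ndufb9, Cox4i1, Uqcr11 and Atp5g1). Scaling to the array median moved all genes by -0.27 at day 8, and 14 subunits then fell past 1.5-fold. No subunit in general use passed 2-fold on any day under any of the 9 other settings.

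Counting all 81 measured members, 1 rose and 4 fell past 1.5-fold on each of the 3 days. Past 2-fold, 1 rose and 3 fell on each day. On the whole array, 12% of genes rose and 9.6% fell past 2-fold at day 4, 13% and 11.5% at day 6, and 14.4% and 11.7% at day 8. The members that passed 1.5-fold were the same 5 genes on all days. They were Cox6b2, which rose, and Ndufa4l2, Cox4i2, Cox6a2 and Cox4nb, which fell, and none of them is a subunit in general use.

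Complex I was represented by 35 genes, and its median was -0.02 at day 4, -0.13 at day 6 and -0.16 at day 8. At day 8, 8 were above and 27 below the control, and 16 were within 1 error of it; under quantile normalization the median at day 8 was 0.11. The 7 core subunits carry the flavin and the iron-sulfur clusters along which electrons run. Ndufv1, which binds the flavin, went from a level of 5.73 in untreated CMPs to 5.72 at day 4, 5.59 at day 6 and 5.47 at day 8, a difference of -0.27 ± 0.20. Its partner Ndufv2 was level throughout, at 5.23, 5.26, 5.19 and 5.19. Ndufs1, the largest subunit of the electron input module, was at 4.67, 4.75, 4.72 and 4.68, and differed by 0.01 ± 0.20 at day 8. Ndufs3 stood highest above its control of the core, at 0.21 ± 0.20, and Ndufs8 lowest, at -0.32 ± 0.20. Ndufs7, which lies by the coenzyme Q pocket, was between them at -0.07 ± 0.20.

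The other 28 members of complex I are supernumerary subunits, which surround the core and are needed for its assembly and stability. The largest differences below the control among those with the same sign on all days were Ndufa3 (-0.44 ± 0.12), Ndufb8 (-0.43 ± 0.20), Ndufa5 (-0.39 ± 0.14) and Ndufb7 (-0.36 ± 0.20). Ndufb8, a subunit of the membrane arm, was at 6.27 in untreated CMPs and at 6.02, 5.88 and 5.84 on the 3 days, so each day was below the control. Ndufa3 rests on 3 probes that did not move alike, with changes of -0.87, -0.20 and -0.23 at day 8. Ndufb9, another subunit of the membrane arm, stood highest, with levels of 6.14, 6.39, 6.46 and 6.55 and a difference of 0.41 ± 0.20. Among those with the same sign on all days it was followed by Ndufa7 (0.09 ± 0.20), Ndufa13 (0.07 ± 0.20) and Ndufa6 (0.07 ± 0.20), all of them within 1 error. Ndufb2, which was below the control at day 4 (-0.06), was above it at day 8 (0.17 ± 0.14).

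Complex II, the citric acid cycle enzyme that has no mtDNA-encoded subunit, showed the smallest range, from -0.18 to 0.17 at day 8. Sdha, the flavoprotein, was at 4.93 in untreated CMPs and at 4.87, 4.76 and 4.75 on days 4, 6 and 8. Sdhb, the iron-sulfur subunit, was at 5.23, 5.28, 5.24 and 5.15. The membrane anchors Sdhc and Sdhd differed from the control by 0.17 ± 0.14 and 0.00 ± 0.20 at day 8. Only Sdhc exceeded its error, and the median of the complex was 0.04, -0.00 and -0.04 on the 3 days and 0.22 at day 8 under quantile normalization.

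In complex III, 4 of 8 subunits were above and 4 below the control at day 8, with a median of -0.01. Among the core subunits Uqcrfs1, the Rieske iron-sulfur protein, was at 4.87, 4.69, 4.63 and 4.58, which is -0.29 ± 0.20 at day 8. Uqcrc1 differed by -0.24 ± 0.20 and Uqcrc2 by 0.06 ± 0.07. Uqcrc2 was the best measured member, since its probe is spotted 10 times on the array with a spot SD of 0.02 to 0.05. The small subunits went both ways. Uqcrb, which binds near the coenzyme Q site, was at 5.50, 5.18, 5.07 and 5.03, and its 3 probes gave -0.34, -0.52 and -0.54 at day 8. Uqcr11, an accessory subunit, was at 6.34, 6.44, 6.55 and 6.66 (0.32 ± 0.14), and Uqcrh, the hinge protein, differed by 0.15 ± 0.14. Uqcrq was lowest at day 4 (-0.44) and back to -0.08 ± 0.14 at day 8.

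The 11 subunits of complex IV in general use had a median of -0.15 at day 8, which was 0.15 under quantile normalization. The lowest were Cox7a2 (-0.33 ± 0.20), Cox5a (-0.31 ± 0.20), Cox6a1 (-0.20 ± 0.20) and Cox6b1 (-0.20 ± 0.20). Cox4i1, the main isoform of the regulatory subunit 4, stood highest, with levels of 7.22, 7.45, 7.47 and 7.53 and a difference of 0.31 ± 0.20. Cox5b, which sits on the matrix side, was within 1 error (0.05 ± 0.14).

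Complex V held the largest differences below the control. Atp5f1, subunit b of the peripheral stalk, was at 4.88 in untreated CMPs and at 4.57, 4.40 and 4.31 on the 3 days, a 1.49-fold lower signal at day 8 and thus just inside the threshold. Both of its probes gave nearly the same value, -0.57 and -0.58. Atp5b, the catalytic beta subunit, was at 8.00, 7.74, 7.55 and 7.46 and differed by -0.54 ± 0.20. The F1 head did not move as a unit. Atp5a1, the alpha subunit that alternates with beta in the head, differed by 0.09 ± 0.20, the gamma subunit Atp5c1 by -0.08 ± 0.14, the delta subunit Atp5d by -0.33 ± 0.20 and the epsilon subunit Atp5e by 0.18 ± 0.20. The 3 genes of the c-ring, the proton-driven rotor, encode the same mature protein. Atp5g1 differed by 0.39 ± 0.14, Atp5g2 by -0.25 ± 0.14 and Atp5g3 by -0.13 ± 0.20. The Atp5g1 value was the mean of a probe at 0.77 and a probe at 0.01, so it is uncertain. Of the other stalk and membrane subunits, Atp5h was at 0.09 ± 0.14, Atp5j2 at -0.22 ± 0.14, Atp5k at -0.06 ± 0.12 and Atp5l at -0.05 ± 0.08 at day 8. Atp5o, which was above the control at day 4 (0.08), was at -0.38 ± 0.20 at day 8. Atp5j, which has a dim probe, was at -0.25 ± 0.25.

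**Figure D2:**
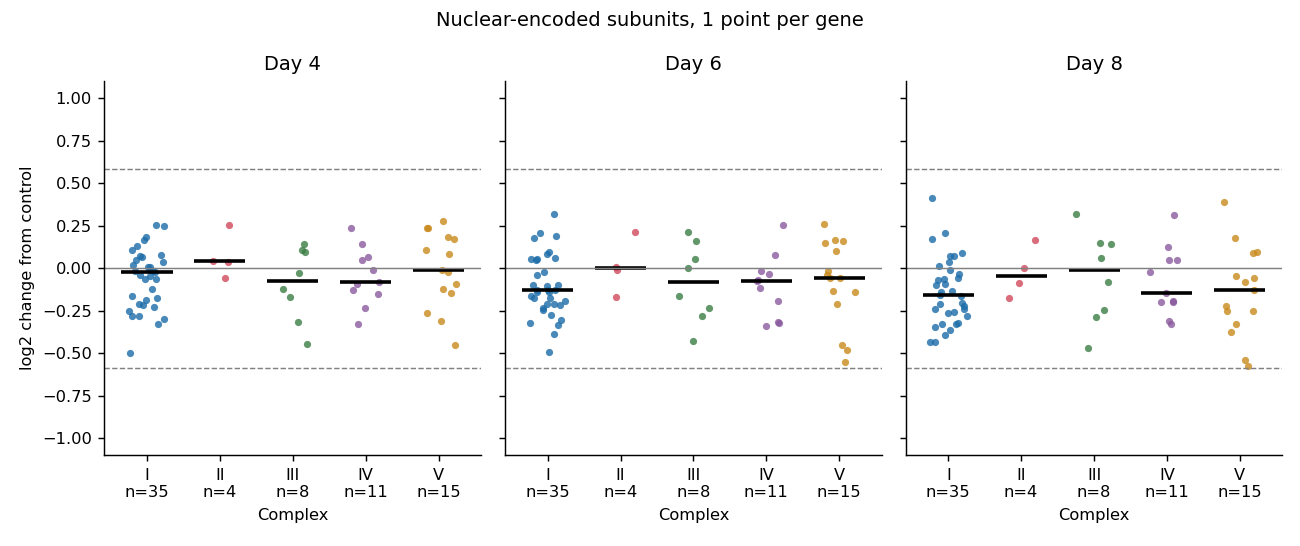
Change from control (log2, vertical axis) of the subunits in general use at days 4, 6 and 8, by complex, with 1 point per gene and a bar at the median; dashed lines mark 1.5-fold. No point crosses a dashed line, and the medians at day 8 run from -0.16 (complex I) to -0.01 (complex III) on this scale and from 0.11 to 0.26 under quantile normalization.

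Of the 29 members measured by several probes, 6 had probes of both signs at day 8 (Atp5c1, Atp5l, Cox8a, Ndufb11, Ndufb5 and Ndufv3), and 5 had probes more than 0.5 apart (Atp5c1, Atp5g1, Ndufa3, Ndufb11 and Ndufb5). A probe of Atp5j and a probe of Ndufb5 were well above background in untreated CMPs alone. In 7 genes a total of 8 probes are not placed by the array files on the gene's chromosome in RefSeq. Of these probes, those of Atp5k are on sequence not assigned to a chromosome, and the others are on another chromosome. These genes (Atp5j2, Atp5k, Atp5l, Cox5b, Ndufb11, Uqcr11 and Uqcrh) are uncertain for that reason.

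Apart from Cox4nb, the members past the threshold were the restricted isoforms Cox4i2, Cox6a2 and Cox6b2, and Ndufa4l2, which was not counted as a subunit. Ndufa4l2, a paralog of the complex IV subunit Ndufa4 that is known as a hypoxia-inducible gene, fell most. Its level was 3.34 in untreated CMPs and -0.82, -1.74 and -0.78 on days 4, 6 and 8. The fall was 17.8-fold at day 4, 33.6-fold at day 6 and 17.4-fold at day 8 (-4.12 ± 0.20), with a rise of 1.94-fold in the last step. Ndufa4 itself was at 5.43, 5.47, 5.31 and 5.55 and stayed within 1 error of its control on each day.

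Cox4i2, the isoform of subunit 4 known from lung and from low oxygen, was at 0.37 in untreated CMPs and at -1.64, -1.42 and -1.32 on the 3 days. This was a fall of 4.02-fold at day 4 and of 3.22-fold at day 8 (-1.69 ± 0.21), while Cox4i1 stood at 0.31. Cox6a2, the heart and skeletal muscle isoform of subunit 6a, was at -1.26, -2.73, -2.59 and -2.26. It fell 2.77-fold by day 4 and was 2.00-fold below the control at day 8 (-1.00 ± 0.21). Both genes were lowest at day 4, the first day measured after infection.

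Cox6b2, the isoform of subunit 6b known from testis, was the member that rose. Its level was 0.38 in untreated CMPs and 2.06, 2.34 and 2.15 on the 3 days, a rise of 3.19-fold at day 4, 3.87-fold at day 6 and 3.40-fold at day 8 (1.76 ± 0.20). Cox6b1 was at 3.92, 3.79, 3.73 and 3.73. The probes of these isoforms and of Ndufa4l2 were well above background on all 4 arrays. Cox7b2 and Cox8c, the remaining tissue-restricted isoforms, were not well above background on any. Each isoform, and Ndufa4l2, rests on 1 probe.

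**Figure D3:**
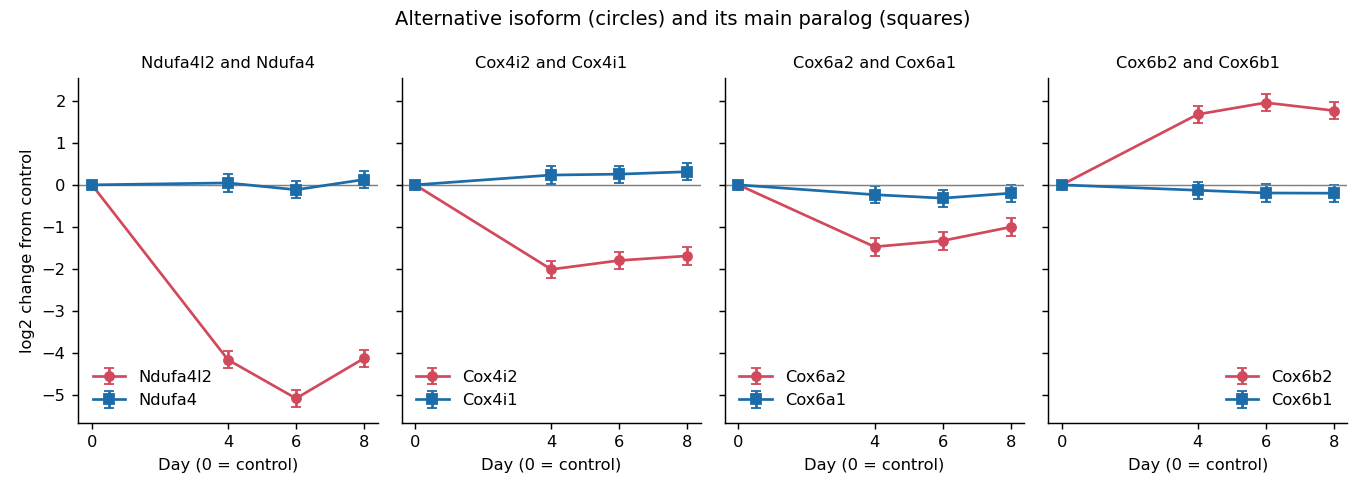
Change from control (log2, vertical axis) by day, where 0 is untreated CMPs. Red circles are the alternative isoforms and Ndufa4l2, and blue squares are their main paralogs. Bars are 1 SD of the scanner error model. Ndufa4l2, Cox4i2 and Cox6a2 lie at or below -1.00 on all 3 days and Cox6b2 lies at or above 1.68, while the 4 main paralogs stay between -0.32 and 0.31.

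The fifth member past the threshold, Cox4nb, is named for its place next to Cox4i1 and is now called Emc8, a subunit of the membrane protein complex of the endoplasmic reticulum. It was at 2.66, 2.03, 1.90 and 1.94, a fall of 1.66-fold at day 8. The other genes that matched by name stayed within 1.5-fold at day 8. They were Cox7a2l, which helps to build respiratory supercomplexes (-0.25 ± 0.12), Atp5s (-0.12 ± 0.21) and Atp5sl (-0.04 ± 0.20).

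The isoforms that the rule leaves out went the other way from Cox6a2. Cox8b, the heart, muscle and brown fat isoform of subunit 8, was at -3.92 in untreated CMPs and at -1.14, 2.59 and 3.65 on the 3 days, a rise of 190-fold by day 8, while its general counterpart Cox8a was at -0.02 ± 0.14. The size of this fold is uncertain, since the control signal was low and came from 1 probe. The median of Cox8b and Cox7a1 at day 8 was 4.02 here and 3.16 under normexp with quantile normalization. Cox7a1, the heart and muscle isoform of subunit 7a, was at -0.31, 0.17, 0.04 and 0.16, which is 0.47 ± 0.20 at day 8. Markers of fat cells were set beside these isoforms. Of the 8 adipocyte markers, 7 stood higher and 1 lower (-1.62) at day 4. All 8 adipocyte markers measured (Adipoq, Cebpa, Cfd, Fabp4, Lep, Lpl, Plin1 and Pparg) stood higher at day 8, and their summed level was 8.12 times the 75th percentile signal in untreated CMPs, 47.9 at day 4, 178 at day 6 and 382 at day 8. Of 5 brown adipocyte markers, Ucp1 and Elovl3 were not well above background on any array, and the 3 others were higher on every day. At day 8 Dio2 rose 4.73-fold, Cidea, which was not well above background in untreated CMPs, was at least 8.81-fold higher, and Otop1 was at 0.57 ± 0.25. The summed level of these 3 was 0.315 in untreated CMPs and 1.91, 1.20 and 1.55 on days 4, 6 and 8. The 3 smooth muscle markers measured fell, from a summed level of 580 to 19.1. Of 9 cardiomyocyte markers 3 were well above background in untreated CMPs and 6 at day 8, with a summed level of 12.0 and 4.25. The sum and the single genes differed in direction. Of the 7 measured, 6 stood higher at day 8 and 1 lower (-1.60), with a median change of 0.91. This count and median are uncertain, since Mb, Myh6, Ryr2 and Tnni3 were not well above background in untreated CMPs. Ryr2 was not well above background at day 8 either. The part of these cell types in the isoform values was not tested. In RNA from a whole culture, fewer cells that make a transcript and less of it per cell cannot be told apart. CMP markers were measured in full, with 9 of 9 well above background on each array. Their summed level was 1237 in untreated CMPs and 1077 at day 8. By gene, 7 of the 9 stood below the control at day 8 and 2 above it. The median change was -0.54, with a range from -1.78 to 2.69.

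The 13 subunits encoded in mtDNA parted from the nuclear ones. Their median change on days 4, 6 and 8 was -0.01, 0.20 and 0.44, and 12 of 13 were above the control at day 8. Past 1.5-fold at day 8, 5 of the 13 rose and 1 fell, compared with 22.5% and 21.3% of all genes. The difference between the medians of the mtDNA-encoded and nuclear subunits was 0.01 at day 4, 0.31 at day 6 and 0.57 at day 8. Under quantile normalization it was -0.12, 0.32 and 0.64, so that the mtDNA-encoded subunits stood higher at days 6 and 8 on every scale used. At day 8, 12 of the 13 lay above the nuclear median.

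The largest rises were in complex I. ND3, a complex I core subunit, was at 6.26, 6.98, 7.41 and 7.40 and rose 2.20-fold by day 8. ND2, another of the proton-pumping arm, was at 5.84, 5.88, 6.52 and 6.88 and rose 2.07-fold, with no rise at day 4. COX3 of complex IV was at 8.39, 8.43, 8.57 and 8.63 (0.24 ± 0.20). CYTB of complex III differed by 0.09, and ATP6 and ATP8 of complex V by 0.44 and 0.49, at day 8. ND6 went against the rest, with levels of 1.36, 0.86, 0.72 and 0.62, and fell 1.67-fold; it is the protein gene that lies on the light strand of mtDNA. Without ND6, all 12 genes were above the control at day 8, from 0.06 to 1.14. The array files place 6 of the 13 probes on chromosome 1, where the nuclear genome holds a copy of mtDNA, and 7 on mtDNA. The median at day 8 was 0.47 for the first and 0.37 for the second, so both sets stood above the control.

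**Figure D4:**
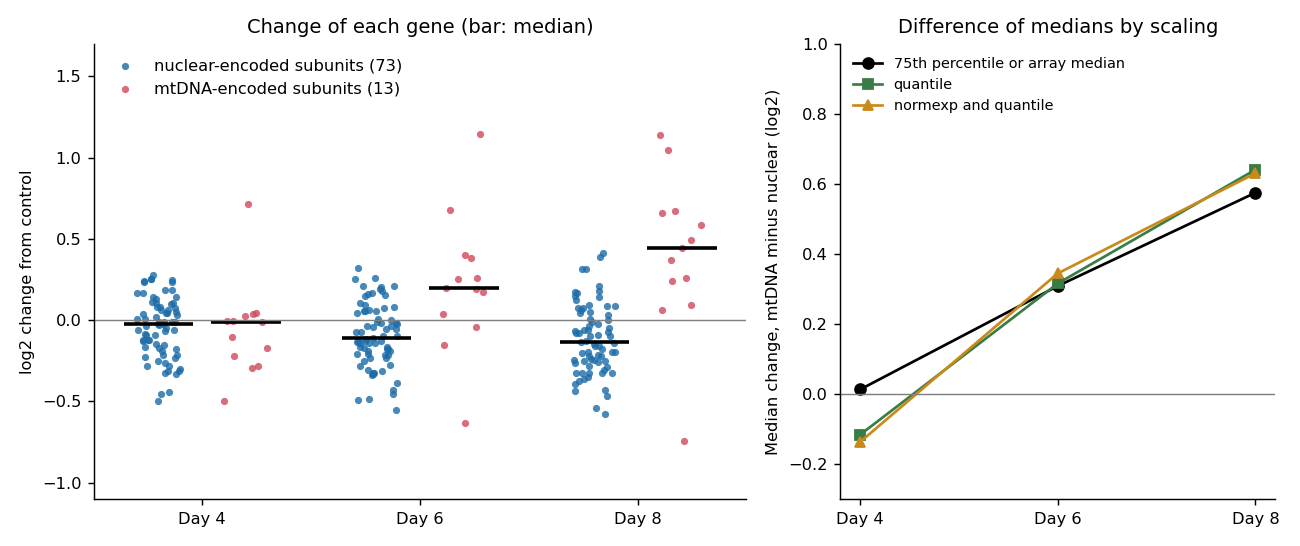
Left, change from control (log2) of each nuclear-encoded subunit in general use (blue, 73) and each mtDNA-encoded subunit (red, 13) at days 4, 6 and 8, with a bar at the median. Right, the difference of the medians, mtDNA minus nuclear, under each scaling; it runs from -0.14 to 0.01 at day 4 and from 0.57 to 0.64 at day 8.

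Other genes of the organelle were set beside the subunits. Their counts past 1.5-fold at day 8 are to be read beside the 22.5% of all genes that rose and the 21.3% that fell. Of 44 measured assembly factors, 2 rose and 2 fell past 1.5-fold at day 8, and their median was 0.05. Sco1, a copper chaperone of complex IV, rose by 0.86 ± 0.15, and Lyrm7, a chaperone of the Rieske protein, by 0.71 ± 0.31. Uqcc2 (listed as 2900010M23Rik), needed for complex III, was 1.99-fold lower, and Ndufaf2, a complex I factor, fell by 0.65 ± 0.20. The assembly factor of ATP synthase Tmem70 was just under the threshold, at 0.58 ± 0.20.

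Of 6 measured carriers and subunits that the rule does not name, Ndufab1, the mitochondrial acyl carrier protein that is also a complex I subunit, was at 2.13, 1.65, 1.47 and 1.15 and fell by 0.98 ± 0.20. The ATP synthase subunits listed as 2010107E04Rik and Usmg5 were at -0.24 ± 0.20 and -0.10 ± 0.20, and Atpif1, the inhibitor of ATP hydrolysis, at 0.22 ± 0.20. Of 13 genes of coenzyme Q synthesis, 2 fell and 1 rose at day 8. The gene that rose, named after its values were seen, was Adck3, a kinase-like protein of the pathway, which was at -3.69, -2.54, -2.01 and -2.03 and stood 3.16-fold higher at day 8 (1.66 ± 0.35). Its signal was dim, and its probes were all well above background at days 6 and 8 alone. Coq3 was well above background at day 8 alone, where it was at least 1.13-fold higher. Coq10b, a coenzyme Q binding protein, was lowest at day 4 (-2.30) and fell 3.14-fold by day 8, and Coq7, a hydroxylase of the pathway, fell by 0.82 ± 0.14. Coq10a was at 0.53 ± 0.20, Coq9 at 0.30 ± 0.20, Coq5 at 0.16 ± 0.11 and Coq2 at -0.04 ± 0.14.

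In the citric acid cycle and the enzymes that feed it, 6 of 19 genes rose and 0 fell at day 8, with a median of -0.04. Pcx, which makes oxaloacetate from pyruvate, was at 2.36, 3.01, 4.41 and 5.24, a rise of 7.34-fold. Subunits of pyruvate dehydrogenase split: Dlat rose by 0.99 ± 0.20, Pdhb by 1.00 ± 0.12 with probes from 0.43 to 2.08, and Pdha1 was at -0.39 ± 0.20. Sucla2 was at -0.39 ± 0.20 and Idh3a at -0.32 ± 0.20.

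Carriers and porins varied more, with 6 of 16 past 1.5-fold upwards and 4 downwards at day 8. The share that stayed within 1.5-fold was 37.5%, compared with 56.2% of all genes. The porins of the outer membrane Vdac2 and Vdac3 fell by 1.25 ± 0.20 and 0.63 ± 0.20. Slc25a4, the ADP and ATP carrier of heart and muscle, was at 8.20, 8.05, 7.76 and 7.54 and fell by 0.65 ± 0.06. The uncoupling proteins Ucp2 and Ucp3 rose by 2.01 ± 0.27 and 1.69 ± 0.26, from dim signals of -4.23 and -4.11, and Slc25a13, the aspartate and glutamate carrier, rose by 1.25 ± 0.20.

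Of 24 regulators of mitochondrial biogenesis, 6 rose and 2 fell at day 8. The share of regulators within 1.5-fold was 66.7%, compared with 56.2% of all genes. Nrf1, which activates subunit genes, was at -1.00, -1.46, -1.49 and -1.61 and fell by 0.61 ± 0.12. The coactivator Pprc1 fell by 0.76 ± 0.21, and Gabpb1, a subunit of the factor GABP, was at -0.57 ± 0.14. Of the genes that act on mtDNA itself, the helicase Twnk (listed as Peo1) rose by 0.96 ± 0.21, Tfb1m by 0.64 ± 0.20 and Mterf by 0.59 ± 0.20, while Tfam, which packages mtDNA, was at -0.21. Ppargc1a, Ppargc1b and Esrrg, named after their values were seen because they coactivate or drive subunit genes, were not well above background in untreated CMPs. Ppargc1a was at least 4.23-fold higher at day 4, 8.32-fold at day 6 and 6.86-fold at day 8. The bounds at day 8 were at least 1.72-fold for Ppargc1b and 2.16-fold for Esrrg.

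**Figure D5:**
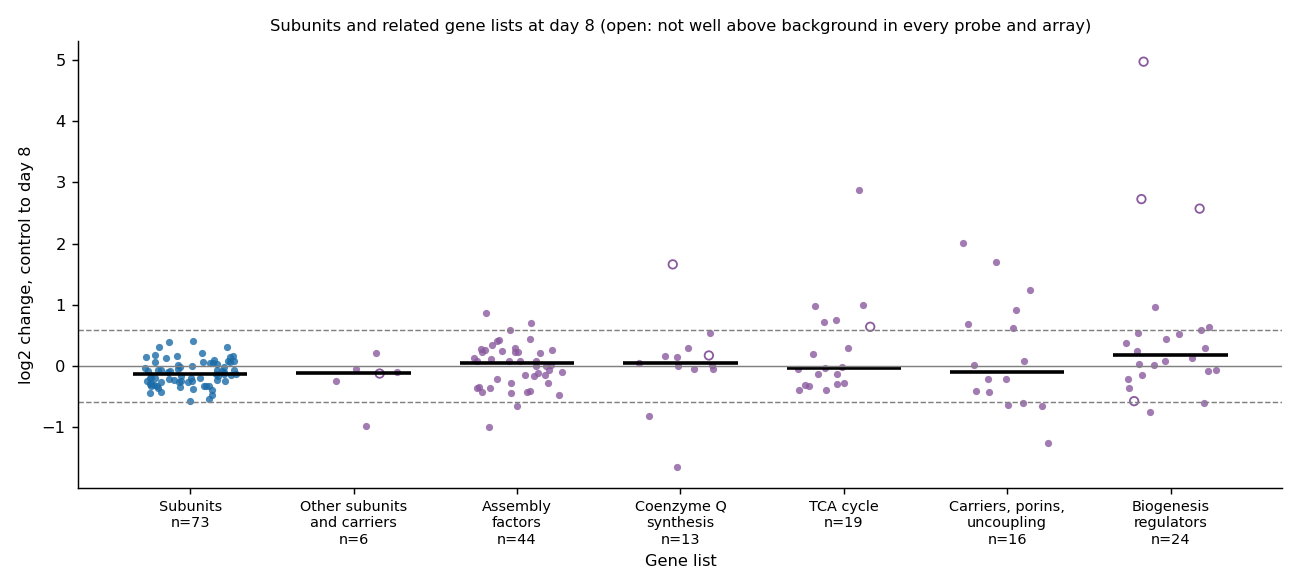
Change from control to day 8 (log2, vertical axis) of the 73 subunits in general use (blue) and of 6 related gene lists (purple), 1 point per gene with a bar at the median; dashed lines mark 1.5-fold, and open points are genes not well above background in every probe and array. The subunits lie between the dashed lines on this scale, while each related list has genes outside them; under quantile normalization 4 subunits lie above the upper line.

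The promoters of the subunits shared letters that the rule did not use. Promoter entries from RefSeq (GRCm38.p6) were found for 61 of the 73 subunits, and the 250 bases before the start were searched on both strands. The NRF1 motif, spelled as GCGC, any base N and then TGCGC, was present in 13 of 61 subunits (21.3%) and in 4.23% of the 27025 genes with an entry. The GABP motif, CCGGAAG, was present in 12 (19.7%) compared with 7.83%, and the CRE motif, TGACGTCA, in 4 (6.56%) compared with 1.77%. The core bound by hypoxia-inducible factors, ACGTG, was present in 12 (19.7%) compared with 18.5%. A match describes letters and is no evidence of binding. The 13 subunits with the NRF1 motif had a median change of -0.18 at day 8, and the 48 without it had -0.13. For the GABP motif the medians were -0.02 with it and -0.15 without it, for the ACGTG core -0.21 and -0.13, and for the CRE motif -0.22 and -0.13.

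The promoters of Cox6b2, which rose, and of Cox6b1, which did not, are shown with those of Cox6a1 and Sdhd, which hold both the NRF1 and the GABP motif. Capitals mark the motifs named above, read 5′ to 3′ along the gene.
Cox6b2, chr7:4753095-4753344, minus strand: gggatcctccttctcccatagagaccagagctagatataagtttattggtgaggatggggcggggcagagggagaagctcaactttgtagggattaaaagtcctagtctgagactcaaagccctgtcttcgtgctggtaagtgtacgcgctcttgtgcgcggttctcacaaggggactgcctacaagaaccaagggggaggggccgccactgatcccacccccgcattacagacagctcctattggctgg
Cox6b1, chr7:30626115-30626364, minus strand: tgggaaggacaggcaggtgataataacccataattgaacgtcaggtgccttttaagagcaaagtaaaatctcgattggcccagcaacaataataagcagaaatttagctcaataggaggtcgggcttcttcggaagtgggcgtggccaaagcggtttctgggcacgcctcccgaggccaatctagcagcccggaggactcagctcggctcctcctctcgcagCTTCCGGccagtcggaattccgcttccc
Cox6a1, chr5:115348959-115349208, minus strand: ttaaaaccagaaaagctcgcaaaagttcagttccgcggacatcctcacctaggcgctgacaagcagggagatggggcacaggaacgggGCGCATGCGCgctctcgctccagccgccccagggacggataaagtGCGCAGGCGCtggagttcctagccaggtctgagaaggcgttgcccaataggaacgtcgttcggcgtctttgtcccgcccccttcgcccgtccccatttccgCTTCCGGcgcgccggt
Sdhd, chr9:50603850-50604099, minus strand: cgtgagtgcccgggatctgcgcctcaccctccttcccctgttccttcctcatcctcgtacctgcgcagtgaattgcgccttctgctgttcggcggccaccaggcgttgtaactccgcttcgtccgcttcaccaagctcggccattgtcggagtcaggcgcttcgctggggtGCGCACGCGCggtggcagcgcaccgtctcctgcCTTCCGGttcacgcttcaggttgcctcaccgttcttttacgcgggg
The Cox6b2 stretch holds none of the 4 motifs and the Cox6b1 stretch holds a GABP motif. The change of Sdhd at day 8 was 0.00 and that of Cox6a1 was -0.20.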

How the data were processed

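RNA from untreated CMPs and from OSKM-CMPs at days 4, 6 and 8 was measured on single-colour Agilent mouse arrays, with 1 array per condition. The authors deposited for each spot a Cy3 intensity processed by Feature Extraction (10.7.3.1 in the file headers, 9.5.3 in the submitters' notes), and a table of log2 values, which the authors made by shifting each array's log2 processed signal by a constant. Here control spots (3671) and outlier spots were left out, spots of a probe were averaged as log2 processed signal, and each array was set relative to its own 75th percentile. A probe entered when 1 or more arrays called it well above background, and the probes of a gene were averaged. Where no probe of a gene was well above background in a group, its fold is a bound. The bound is set against the higher of the gene's own signal and the lowest signal called above background on that array. Medians and counts of lists use the values as measured. Genes were named through RefSeq (GRCm38.p6; 26762 probes by accession, 3819 by symbol, 639 by synonym, 24461 without a match), and probe positions are on mm9. With 1 array per condition no test was made; counts past 1.5-fold and 2-fold were set beside those of all genes, after the counting was tested on simulated data. The share of probes well above background ran from 56.6% to 59.6%, and no spot was saturated.

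The members and gene lists were chosen with earlier results of these data known. The genes named were all of complex II, the core subunits of complexes I and III, the F1 and c-ring subunits, and the restricted isoforms; of the other members of each complex up to 4 with the largest rise and up to 4 with the largest fall at day 8; and of each related list up to 3 in each direction. Outside the sets named in full, a gene had to be measured above background in the control and at day 8, with 1 direction over the 3 days; genes with discordant or dim probes were added. The values of 1 subunit are not reported here. Alternatives were normexp (offset 50) with quantile normalization, quantile normalization, the array median, the authors' table, other treatments of dim probes and of several probes, and other memberships. Python 3.11.15, numpy 2.4.6, pandas 2.3.3, matplotlib 3.10.9, R 4.3.3 and limma 3.58.1 were used.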

Additional observations from a re-analysis of the deposited data

How the results depend on the processing

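Each condition had 1 array, so no replicate could be left out, and the number of arrays limits the precision. No paired analysis was possible because each group held 1 sample. Of 411 medians recomputed over 12 alternatives, 342 shifted by under 0.091 on the log2 scale, and 19 with a larger reported value turned sign. This limit is the SD of a change reckoned from replicate spots of a probe within an array. It is smaller than the error of the scanner's model used above, which had a median of 0.20 for a member gene. Of 2403 values for single genes, 1933 stayed within the limit and 43 turned sign. Of 144 counts, 123 stayed within 1.5 times. Why the values moved was not tested, save where fewer genes were counted. The Cox4nb alternative was chosen after seeing the data and moved no value past these limits.

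Quantile normalization turned the sign of the small shifts. The median of all measured members became 0.11, 0.12 and 0.11 at days 4, 6 and 8, and 0.042 from day 4 to day 6; members up past 1.5-fold numbered 2 at day 6 and 5 at day 8. The medians at days 4, 6 and 8 became 0.097, 0.095 and 0.11 for complex I, 0.19, 0.21 and 0.22 for complex II, 0.073, 0.12 and 0.26 for complex III, 0.043, 0.081 and 0.15 for complex IV, 0.15, 0.21 and 0.20 for complex V, 0.052, 0.14 and 0.15 for subunits and carriers not matched by name, and 0.089, 0.14 and 0.22 for the citric acid cycle. Those of the mtDNA-encoded subunits became 0.46 and 0.78, and those of carriers and porins -0.0094 and 0.021, at days 6 and 8. Single genes that turned sign were, at day 4, Atp5j2 (0.018); at day 6, Atp5d (0.020), Ndufv1 (0.11), Sdha (0.031), Ndufa5 (0.057), Ndufb7 (0.0053), Atp5j2 (0.13), Atp5l (0.12), 2010107E04Rik (0.16) and Usmg5 (0.12); and at day 8, Atp5g2 (0.095), Atp5g3 (0.23), Ndufv1 (0.042), Sdha (0.066), Cox5a (0.057), Cox6a1 (0.0046), Atp5j2 (0.11), 2010107E04Rik (0.10) and Usmg5 (0.23).

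With normexp background correction before quantile normalization, the median of all members was 0.12, 0.11 and 0.10 at days 4, 6 and 8, and 0.032 from day 4 to day 6, with 2 members up past 1.5-fold at day 6 and 5 at day 8. In the same order of days it was 0.11, 0.10 and 0.10 for complex I, 0.20, 0.23 and 0.24 for complex II, 0.075, 0.11 and 0.26 for complex III, 0.035, 0.099 and 0.17 for complex IV, 0.15, 0.22 and 0.20 for complex V, 0.055, 0.14 and 0.14 for subunits and carriers not matched by name, 0.91, 2.54 and 3.16 for Cox8b with Cox7a1, and 0.17, 0.31 and 0.22 for the citric acid cycle. At days 6 and 8 it was 0.46 and 0.80 for the mtDNA-encoded subunits and 0.0029 and 0.029 for carriers and porins. Single genes that turned sign were, at day 4, Cox6b1 (0.020), Atp5j2 (0.0046), Usmg5 (0.0092), Fam36a (0.0074) and Lyrm7 (-0.025); at day 6, Ndufv1 (0.10), Sdha (0.024), Ndufa5 (0.062), Ndufb7 (0.011), Atp5j2 (0.10), Atp5l (0.11), 2010107E04Rik (0.15) and Usmg5 (0.14); and at day 8, Atp5g2 (0.094), Atp5g3 (0.22), Ndufv1 (0.021), Sdha (0.069), Ndufb7 (0.0012), Cox5a (0.042), Cox6b1 (0.0097), Atp5j2 (0.089), 2010107E04Rik (0.098) and Usmg5 (0.24).

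Scaling to the array median moved all genes by -0.14, -0.13 and -0.27 at days 4, 6 and 8, so medians were taken relative to that shift, and members down past 1.5-fold numbered 7, 8 and 18. Without the restricted isoforms and the genes that are no subunits, 0 members rose and 0 fell past 1.5-fold or 2-fold on any day, as fewer genes were counted. By probes in place of genes, 7 were down past 1.5-fold at day 6 and 2 up at day 8. The median of complex IV at day 8 was -0.030 when a gene took the median of its probes. With the stricter filter, every array well above background, the biogenesis list had medians of 0.085 and 0.080 at days 6 and 8. The citric acid cycle had 0.076 at day 4 with that filter, with a floor on dim values and with the brightest probe of each gene. Coenzyme Q synthesis had 0.088 at day 6 with the floor, carriers and porins had -0.21 at day 8 with the brightest probe, and Coq9 was -0.24 at day 8 with no filter on dim probes. Ndufa4l2, Cox4i2, Cox6a2 and Cox6b2 kept their direction on every day under each alternative.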
